A study of Mus musculus with 4 samples.

Results

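The genes described here encode the enzymes that attach NEDD8 to cullins, the RING subunits of cullin ubiquitin ligases and the cullin exchange factor Cand1. They were named in a list of 10 symbols: Nedd8, Nae1, Uba3, Ube2m, Ube2f, Dcun1d1, Dcun1d5, Rbx1, Rnf7 and Cand1. All probe sets that the platform annotation assigns to exactly 1 of these symbols were taken, which gave 27 probe sets of 9 genes, of 34945 such probe sets of 18193 genes on the array. No probe set carried the symbol Ube2m in the annotation used here, so Ube2m was not analysed. Of the 27 probe sets, 25 lay above background on at least 2 arrays and were tested, and all 9 genes had a tested probe set.

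The arrays labelled KO (n = 2) came from CD4 Cre+ Cul3 fl/fl mice, in which Cre under Cd4 control is meant to delete Cul3 in developing T cells. The LM arrays (n = 2) came from CD4 Cre- Cul3 fl/fl mice, which carry the same floxed alleles without Cre. All mice were on the B6 background, and the material of every array was RNA of sorted CD4 single-positive thymocytes, negative for CD25, for the gamma delta receptor and for the CD1d tetramer that stains NKT cells. Ages were not given, nor whether the 2 samples of a genotype came from separate animals, so p-values cover only the variation among these samples, which could be technical. No group carried Cre without floxed Cul3, so Cre and Cul3 loss cannot be told apart.

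NEDD8 is a small ubiquitin-like protein that is joined to a lysine of the cullin scaffold and thereby switches a cullin RING ligase to its active form. An E1 made of Nae1 and Uba3 activates NEDD8 and passes it to an E2. In the usual pairing Ube2m works with the RING protein Rbx1 on most cullins, Cul3 among them, and Ube2f works with Rnf7 on Cul5. Dcun1d proteins help the transfer as co-E3 factors, the COP9 signalosome removes NEDD8 again, and Cand1 binds cullins that lack NEDD8 and exchanges their substrate receptors. In T cells these ligases include the Cul3 complexes that use BTB adaptors.

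The deposited values are linear signal intensities, scaled by the authors to a common mean. Differences are given as the mean of the arrays labelled KO minus the mean of the LM arrays, on the log2 scale after adding 16 and quantile normalization, with the standard error (SE) of a limma fit over all 11255 genes tested. The targeted gene was read first. The brightest Cul3 probe set had signals of 5380 and 5577 on the arrays labelled KO, against 5333 and 5724 on the LM arrays. The groups overlapped, with a difference of -0.01 ± 0.09 (limma adjusted p = 0.994), and none of the 5 Cul3 probe sets, whose differences ran from -0.15 to 0.31, passed the threshold. No source used here says which exons are floxed or where the probe sets lie, and probes beyond the deleted exons would check nothing. Genotypes were therefore taken from the labels alone.

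As for the cells themselves, 7 of 7 CD4 single-positive markers were above background, and none of them passed the threshold. Cd4 read 7169 and 7233 on the arrays labelled KO and 7742 and 8153 on the LM arrays. Of the 7 differences 3 were positive and 4 negative. Without overlap, 2 were higher and 2 lower on the arrays labelled KO, beside 19.1% and 18.3% of all tested genes. Of 6 B cell markers only Cd79a was above background on 2 or more arrays, of 6 macrophage and dendritic cell markers 3 were, of 6 thymic epithelial markers 2 were, and of 6 erythroid markers 1 was. Markers of double-positive and CD8 cells were above background for 5 of 6 genes, all but Ptcra. Signals summed over all 6 were 3965 and 4042 on the arrays labelled KO and 3402 and 4108 on the LM arrays. Dntt made up most of each sum and differed by -0.02. The other 4 tested (Cd8a, Cd8b1, Rag1 and Rag2) were positive, at 0.07 to 0.52, and Cd8b1 and Rag2 did not overlap between genotypes. None of the 5 passed, and their part in the results below was not tested. Proliferation genes were lower on the arrays labelled KO: all 11 tested had negative differences, with a median of -0.86. In limma 5 passed as lower (Mki67, Top2a, Ccna2, Ube2c and Kif11), where 0.142% of all tested genes did, and 0 passed as higher. None of the 5 calls was made without the filter on dim genes or without the intensity trend, where 0 of all genes passed in limma and the median stayed at -0.86. With the mean of all probe sets of a gene, Top2a and Ccna2 did not pass, Rrm2 did, and the median was -0.69. Summed signals of the 11 genes were 18687 and 18939 on the arrays labelled KO, against 29725 and 31469 on the LM arrays. The part of these genes in the results below was not tested either.

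None of the neddylation and RING genes changed at the threshold. Each gene was read by 1 probe set, the brightest assigned to it alone. On that reading 0 of 9 members passed a limma adjusted p of 0.05, where 0.275% of all tested genes did. At an unadjusted p below 0.05 the count was also 0 of 9, against 8.40% of all tested genes, and it was 1 of 9 without the filter and without KO replicate 2. A count of 0 among 9 is near what that share would give. Differences ran from -0.18 for Dcun1d5 to 0.37 for Ube2f, with a median of -0.02 over the 9 genes and 0.0018 over all genes tested. A p above the threshold does not show equal levels, and the intervals below give the sizes that the arrays allow. In bulk RNA, fewer cells with a transcript and less transcript per cell cannot be told apart.

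**Figure D1:**
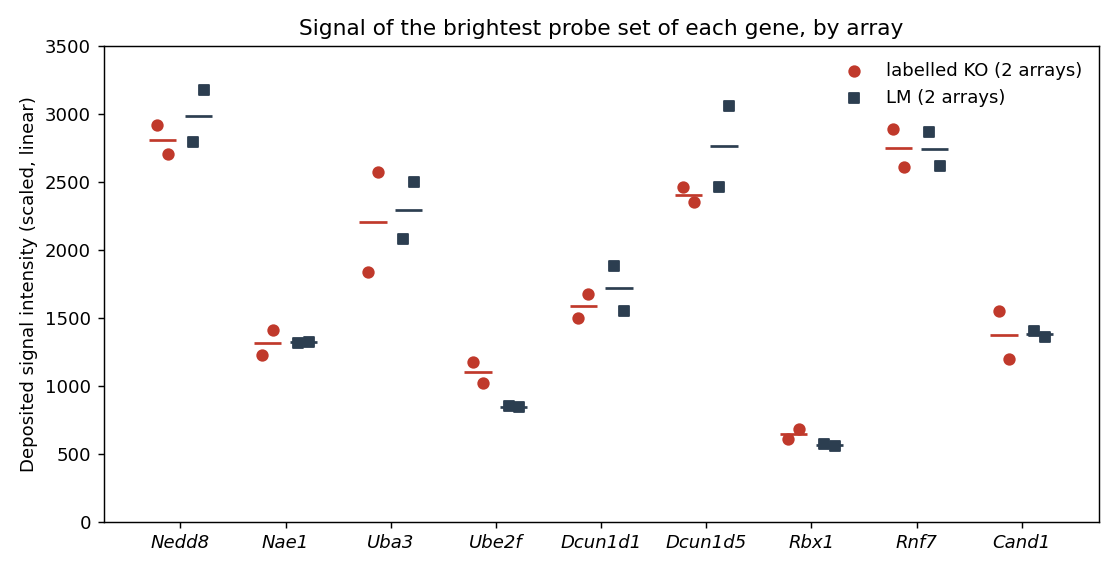
Deposited signal (linear, vertical axis) of the brightest probe set assigned to a gene alone, for each of the 9 genes. The 2 arrays labelled KO are circles and the 2 LM arrays are squares to their right. Bars are means of 2 arrays. Brighter probe sets shared by Rbx1 and the pseudogene Rbx1-ps are not shown. Levels of different genes are not comparable. Circles lie above squares without overlap for Ube2f and Rbx1, and none of the 9 differences passed the test.

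NEDD8 itself is represented by 1 probe set, 1423715_a_at. It read 2917 and 2704 on the arrays labelled KO, against 2793 and 3175 on the LM arrays. The array with the highest signal was LM replicate 2, and the groups overlapped. The difference was -0.07 ± 0.13 (SE, limma adjusted p = 0.946), and its 95% interval put the signal on the arrays labelled KO between 78.9% and 116% of that on the LM arrays.

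The E1 heterodimer showed no difference for Nae1, the regulatory subunit, at its 1 probe set beyond the spread between arrays. Its signals were 1223 and 1411 on the arrays labelled KO, against 1315 and 1324 on the LM arrays, so both LM values lay between the KO values. The difference was -0.00078 ± 0.17, with an interval from 77.8% to 128% of LM. At these settings 99.7% of all tested genes had a larger absolute difference.

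Uba3, the catalytic E1 subunit, was read by 3 probe sets that differed in sign. The brightest, 1431746_a_at, read 1835 and 2569 on the arrays labelled KO, against 2080 and 2502 on the LM arrays, and both the lowest and the highest array were labelled KO. The difference was -0.07 ± 0.18 (limma adjusted p = 0.968). The other two probe sets were both higher on every array labelled KO than on either LM array. For 1417202_s_at the signals were 1832 and 1920 on the arrays labelled KO, against 1312 and 1663 on the LM arrays. The difference there was 0.35 ± 0.17, with a limma adjusted p of 0.657 over all probe sets, the lowest among the member probe sets, and it was 0.18 without LM replicate 1 and 0.51 without LM replicate 2. For 1435164_s_at they were 1030 and 1094 on the arrays labelled KO, against 791 and 928 on the LM arrays, with a difference of 0.32 ± 0.19 that became 0.19 without LM replicate 1. In Affymetrix probe set names the ending _s_at marks probes that can match transcripts of more than 1 gene, and _a_at marks probes shared by transcripts of 1 gene. Which Uba3 transcripts each probe set detects was not tested, and neither was the difference between the probe sets. Averaging all 3 gave Uba3 a difference of 0.20 ± 0.14 (limma adjusted p = 0.758).

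Ube2f, the NEDD8 E2 that pairs with Rnf7, had the largest difference of the 9 genes when each was read by its brightest probe set. Its brightest probe set, 1432426_a_at, read 1174 and 1021 on the arrays labelled KO, against 852 and 842 on the LM arrays. Both KO values lay above both LM values. The difference was 0.37 ± 0.18, an estimated 129% of the LM signal with an interval from 98.7% to 170%, and did not pass (limma adjusted p = 0.629). Among all tested genes 20.3% had a larger absolute difference. No alternative setting brought it past the threshold.

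The 6 Ube2f probe sets differed in sign, 4 being positive and 2 negative. The probe sets 1450275_x_at and 1429568_x_at also had both arrays labelled KO above both LM arrays, with differences of 0.28 ± 0.21 each. Signals of 1450275_x_at were 719 and 663 on the arrays labelled KO, against 581 and 554 on the LM arrays, and those of 1429568_x_at were 817 and 752 on the arrays labelled KO, against 739 and 557 on the LM arrays. The ending _x_at marks probes that resemble other sequences and may cross-hybridise. The lowest value came from 1455569_at, at -0.44 ± 0.29, with signals of 349 and 228 on the arrays labelled KO and 454 and 326 on the LM arrays, which overlapped. That difference was -0.76 without KO replicate 1, -0.12 without KO replicate 2 and -0.25 without LM replicate 1. 1451272_a_at differed by -0.12 and 1436254_at by 0.01, both with overlapping groups. With the mean of all 6 probe sets the Ube2f difference was 0.06, below those of Uba3 (0.20), Rbx1 (0.19) and Rnf7 (0.15), so its size and its rank depended on the probe set read.

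**Figure D2:**
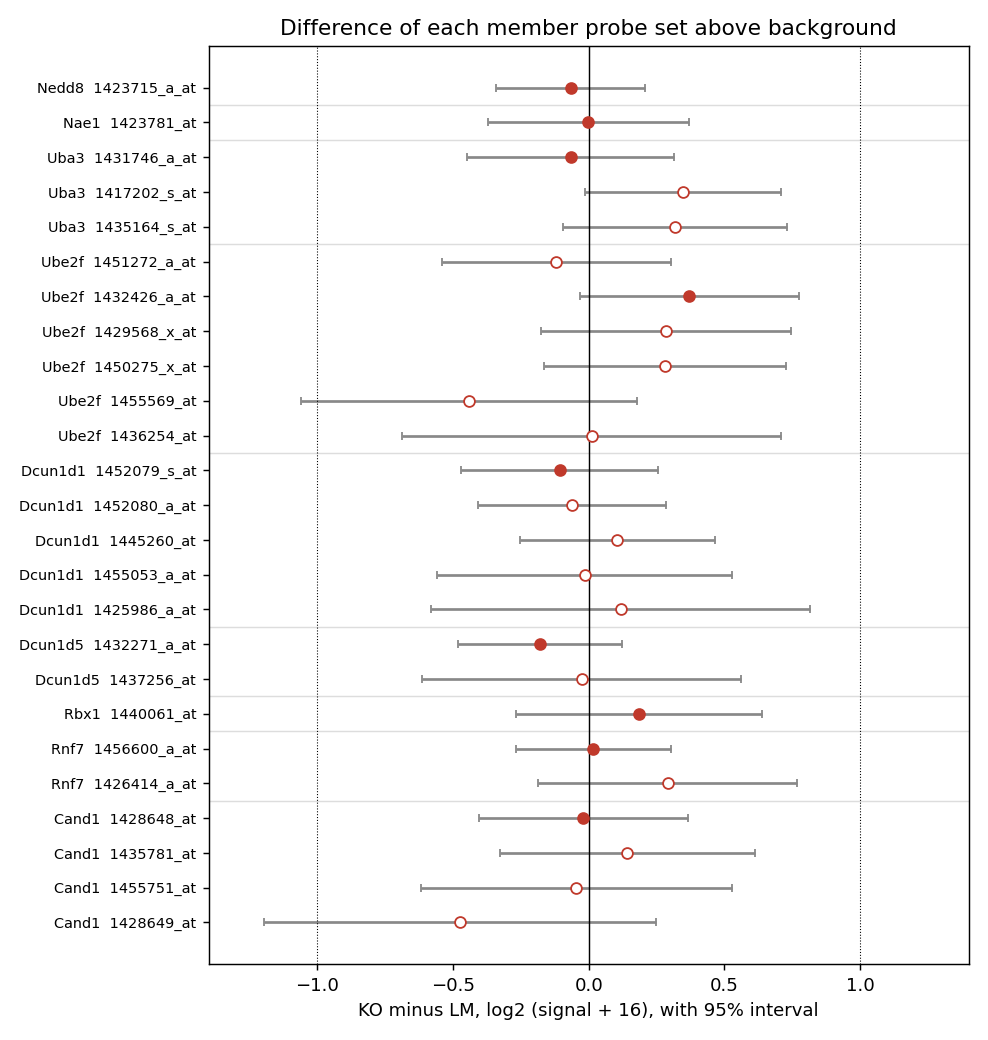
Difference between the arrays labelled KO and the LM arrays (horizontal axis, log2 of signal + 16, positive where KO is higher) for the 25 member probe sets above background, with 95% intervals from limma. Filled points are the brightest probe set of a gene and dotted lines mark 2-fold. Every interval spans 0, and those of 1455569_at (Ube2f) and 1428649_at (Cand1) reach past 2-fold on the lower side.

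The co-E3 genes lay near or below 0. Dcun1d1, which binds cullin and NEDD8 E2 together, read 1501 and 1678 at its brightest probe set on the arrays labelled KO, against 1884 and 1552 on the LM arrays. LM replicate 1 was the highest array, and the groups overlapped. The difference was -0.11 ± 0.17 (limma adjusted p = 0.928), with an interval from 72.4% to 119% of LM. Over its 5 probe sets the differences ran from -0.11 to 0.12, with 2 positive and 3 negative. The widest scatter within a genotype was at 1425986_a_at, with 272 and 552 on the arrays labelled KO and 446 and 282 on the LM arrays. A further probe set that the annotation shares between Dcun1d1 and the pseudogene Tes3-ps differed by 0.04.

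Dcun1d5, another co-E3 of the family, read 2463 and 2351 at its brightest probe set on the arrays labelled KO, against 2461 and 3062 on the LM arrays. One KO array and one LM array were within 2 units of each other, and LM replicate 2 stood above the rest. The difference was -0.18 ± 0.14 (limma adjusted p = 0.823), between 71.7% and 109% of LM. It was -0.31 without LM replicate 1 and -0.05 without LM replicate 2, where Dcun1d1 was lower at -0.26. After normalization its groups did not overlap, while the deposited signals did. A dimmer probe set, 1437256_at, differed by -0.03 ± 0.27. The remaining 2 Dcun1d5 probe sets were below background on every array, with signals of 35.0 to 55.6 on the arrays labelled KO and 36.9 to 42.1 on the LM arrays.

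Rbx1, the RING protein that docks the ubiquitin E2 on Cul3 and most other cullins, had 1 probe set of its own, 1440061_at. It read 605 and 683 on the arrays labelled KO, against 575 and 555 on the LM arrays, so the groups did not overlap. The difference was 0.19 ± 0.20 (limma adjusted p = 0.881), with an interval from 84.1% to 154% of LM, and was 0.11 without KO replicate 2. Another 5 probe sets are assigned to both Rbx1 and the pseudogene Rbx1-ps, and their signal cannot be assigned to either, so they were read only as a description. The brightest of them, 1416577_a_at, had signals of 11474 and 10425 on the arrays labelled KO, against 10058 and 12140 on the LM arrays. Its difference was -0.02 ± 0.08 (limma adjusted p = 0.987 over all probe sets), and the next, 1448387_at, differed by -0.18 ± 0.15. The dimmer 1416578_at and 1438623_x_at differed by 0.03 ± 0.22 and 0.08 ± 0.37, and 1447793_x_at was below background. The sign of the Rbx1 probe set thus differed from the brightest shared ones but not from these dimmer ones. None of those tested passed.

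Rnf7, the RING partner of Cul5, read 2885 and 2612 at its brightest probe set on the arrays labelled KO, against 2865 and 2614 on the LM arrays. The values of each replicate number were nearly the same in both genotypes. The difference was 0.02 ± 0.13 (limma adjusted p = 0.994), between 83.0% and 123% of LM. It turned to -0.05 with median centring and was 0.15 with the mean of both probe sets. The second probe set, 1426414_a_at, read 885 and 1358 on the arrays labelled KO, against 966 and 835 on the LM arrays. KO replicate 2 alone was high there, and the difference of 0.29 ± 0.22 became -0.01 without it and 0.59 without KO replicate 1.

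Cand1, which binds cullins free of NEDD8, read 1548 and 1194 at its brightest probe set on the arrays labelled KO, against 1406 and 1361 on the LM arrays. Both LM values lay between the KO values. The difference was -0.02 ± 0.17 (limma adjusted p = 0.994), with an interval from 75.9% to 128% of LM. Of its 4 probe sets 3 were negative and 1 positive, and their mean gave -0.10. The dimmest, 1428649_at, had the most negative value of all member probe sets, -0.47 ± 0.33 (limma adjusted p = 0.822 over all probe sets). It read 147 and 163 on the arrays labelled KO, against 176 and 262 on the LM arrays, and the difference was -0.16 without LM replicate 2 and -0.79 without LM replicate 1.

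Across probe sets the picture was the same as across genes. In the limma fit of all 26916 probe sets above background, 0 of 25 member probe sets passed, where 0.197% of all did, and 0 of 25 lay at an unadjusted p below 0.05, where 7.70% of all did. The count at an unadjusted p below 0.05 became 3 without KO replicate 1, and 1 without LM replicate 2 and without the filter. Of the 25 differences 12 were positive and 13 negative. Probe sets of 1 gene share its transcripts and are not replicates.

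Groups without overlap were counted on normalized values. Among the 9 genes, both arrays labelled KO lay above both LM arrays for 2, Ube2f and Rbx1, where 19.1% of all genes did so, and below them for 1, Dcun1d5, where 18.3% did. Among the 25 probe sets, 7 lay above, beside 18.1% of all, and 2 below, beside 18.4% of all. The 7 comprised 3 of Ube2f, 2 of Uba3 and 1 each of Rbx1 and Dcun1d1. Taking both directions together, 9 of 25 is close to the share over all probe sets, 36.5%.

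The members were near the whole array in how genotype differences compared with gaps between arrays of 1 genotype. For 7 of 9 genes the difference was smaller than the larger of the 2 within-genotype gaps, and only Ube2f and Rbx1 exceeded both gaps, beside 25.0% of all tested genes. The KO gap was widest for Uba3, at 0.51 on the log2 scale, beside a difference of 0.07 in size.

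**Figure D3:**
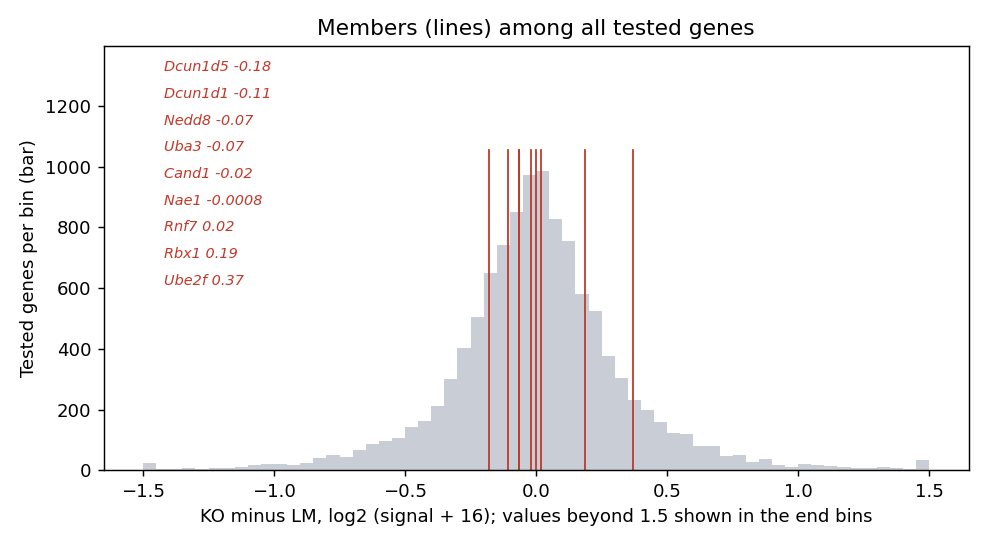
Histogram of the difference between the arrays labelled KO and the LM arrays over all 11255 tested genes (horizontal axis, log2 of signal + 16; vertical axis, genes per bin), with a line for each of the 9 members. The members lie between -0.18 and 0.37, within the bulk of the distribution.

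The arrays set bounds on the changes they could hold. For 9 of 9 genes the 95% interval lay within 2-fold in either direction, as it did for 75.9% of all tested genes, and for 7 of 9 it lay within 1.5-fold, as for 38.4% of all. The exceptions at 1.5-fold were Ube2f and Rbx1, on the upper side. Rbx1 was read there by its own probe set alone, without the brighter ones shared with Rbx1-ps. At the brightest probe sets the outermost limits were 71.7% of LM for Dcun1d5 and 170% of LM for Ube2f. Over the 25 member probe sets they were wider, 43.7% for Cand1 1428649_at and 176% for Dcun1d1 1425986_a_at. The members were brighter on average than the tested genes as a whole, with a mean level of 10.68 on the log2 scale beside 9.30 over all tested genes, and their median SE was 0.166 beside 0.220. Among the 25 probe sets 23 had intervals within 2-fold, beside 73.1% of all probe sets, and 11 within 1.5-fold, beside 30.9% of all.

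The rest of the pathway was read from lists of genes that act with NEDD8. Of 8 other NEDD8 pathway genes 5 were tested, 0 passed in limma in either direction, and the median difference was -0.03. The smallest p among them belonged to Dcun1d2, a further co-E3, with signals of 415 and 440 on the arrays labelled KO, against 575 and 496 on the LM arrays, and a difference of -0.32 ± 0.21 (limma adjusted p = 0.784). Among cullin scaffolds 8 of 8 were tested, 0 passed and 6 were positive, beside 50.3% of all tested genes, with a median of 0.12. Signs of genes read on the same 4 arrays are not independent. Cul4a, the scaffold of DDB1-based ligases, had the smallest p, with 2272 and 2312 on the arrays labelled KO, against 1785 and 2086 on the LM arrays, and differed by 0.24 ± 0.14. All 4 linker genes between cullins and substrate receptors were tested, 0 passed, and their differences ran from -0.05 to 0.08, with Eloc, an elongin subunit, at the upper end.

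The COP9 signalosome, which reverses cullin neddylation, had 10 of 10 subunits tested, and 0 passed in limma. Of its differences 8 were negative, with a median of -0.08, while 50.3% of all tested genes were positive. Its catalytic subunit Cops5, the metalloprotease that cleaves NEDD8 from cullins, read 1194 and 1049 on the arrays labelled KO, against 1448 and 1582 on the LM arrays. Both KO values lay below both LM values, and the difference was -0.43 ± 0.17 (limma adjusted p = 0.480). That was the lowest adjusted p among the NEDD8 and cullin lists, and it did not pass.

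Among ubiquitin E2 enzymes and RING-between-RING ligases that work with neddylated cullins, 8 of 9 were tested, 0 passed, and the median was 0.07. Arih2, the partner ligase of neddylated Cul5, had the smallest p, with 4018 and 4105 on the arrays labelled KO, against 4606 and 5063 on the LM arrays, and differed by -0.24 ± 0.10 (limma adjusted p = 0.554). Of 11 E1 and E2 enzymes of other ubiquitin-like cascades 7 were tested, 0 passed, and the median was -0.01. Their smallest p belonged to Atg7, the E1-like enzyme of autophagy, which differed by 0.48 ± 0.25. At an adjusted p of 0.05, then, none of these lists held a changed gene, beside the 0.275% of all genes tested.

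**Figure D4:**
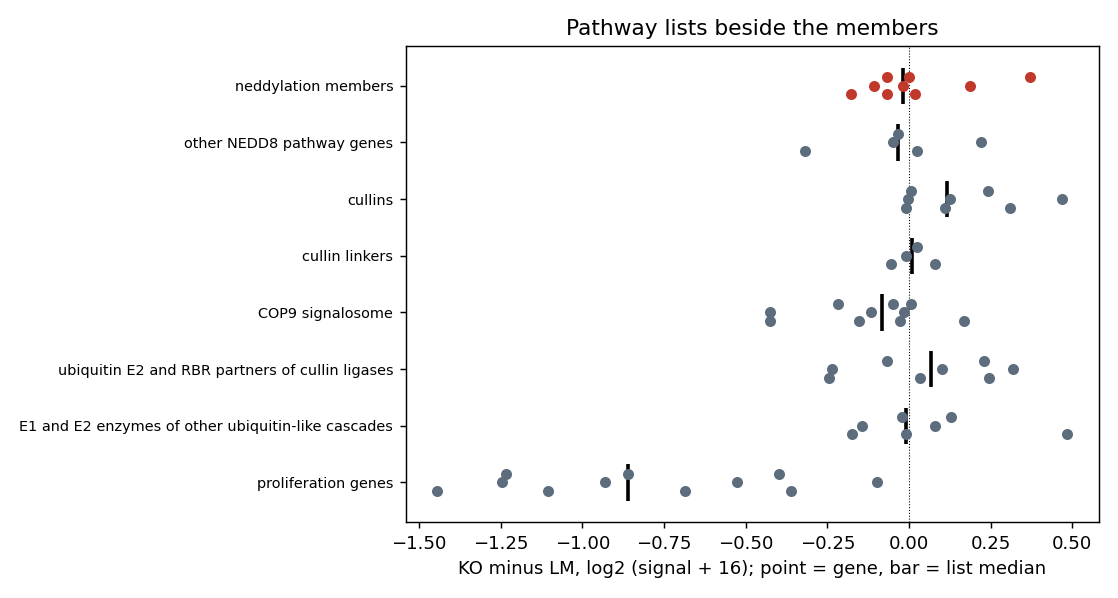
Difference between the arrays labelled KO and the LM arrays (horizontal axis, log2 of signal + 16) for each tested gene of 7 pathway or proliferation lists below the 9 members, with the list median as a bar. Medians of the NEDD8 and cullin lists lie between -0.08 and 0.12, and the proliferation genes, shown for scale, have a median of -0.86.

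Genes with the profile most like Ube2f over the 4 arrays were Icam1, Col1a2 and Ccdc13. Likeness was the root-mean-square difference of log2 values centred on each gene's mean, and it was 0.020, 0.023 and 0.024. With only 4 arrays such closeness is a description. Col1a2 was above background only on the arrays labelled KO, with 110 and 105 there, and lay below it on the LM arrays, so its likeness rests on signals near background. None of the 3 passed in limma (lowest adjusted p = 0.685, Icam1).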

How the data were processed

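The values deposited by the authors are signal intensities on a linear scale, 1 for each probe set on each array. Each array's mean after trimming 2% at each end was 500.0, so the deposited intensities had been scaled, and array medians of log2(signal + 16) were 7.28 to 7.44. The summarisation program is not given in the sources used here. RNA was Trizol-extracted and amplified with the WT-Ovation Pico system, per the labels' protocols.

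Of 45101 probe sets, 64 controls were left out, and probe sets were named by the platform annotation. Names matched RefSeq (GRCm38.p6) for 34741 of 34945 single-symbol probe sets. Values were taken as log2(signal + 16), which understates changes of dim genes, and quantile normalized. Background was set per array from 80 probe sets for olfactory or vomeronasal receptors, at their 95th percentile (signals of 77.7 to 106), and had to be exceeded on at least 2 arrays. The brightest single-symbol probe set represented a gene in the main fit, and a second fit took each probe set by itself. Both used limma 3.58.1 in R 4.3.3 with an intensity trend, genotype as the only term, two-sided p-values and Benjamini-Hochberg adjustment over all features tested. The fit had 2 residual degrees of freedom and 9.96 borrowed from other genes. The number of arrays limits the precision. The fit was also run on data simulated from its own variance model, from which no value is given here. Such data share the assumptions of the fit and cannot check them. Figures used Python 3.11.15, pandas 2.3.3 and matplotlib 3.10.9.

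Named were all members, Cul3, from each pathway list the genes past the threshold or else the smallest p, and the 3 profiles nearest to the member with the smallest p. Cd4, Cd79a and the double-positive and CD8 markers, outside this rule, were chosen after their values were seen. Members and lists were chosen with earlier results of these data known. Alternatives covered the filter, normalization, pseudocount, variance moderation, probe set choice, replicate block and each array left out. Probe sets shared with pseudogenes were added after seeing the data.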

Additional observations from a re-analysis of the deposited data

How the results depend on the processing

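No member passed the threshold in limma under any alternative: 0 of 9 genes over 14 alternatives, with lowest adjusted p-values of 0.574 to 0.926, and 0 of 25 probe sets over 13 (0 of 27 without the filter), with 0.277 to 0.916. Of 126 member values at gene level 14 had the other sign, and of 325 at probe set level 24, and none of these was past the threshold on either side. Median centring gave -0.045 for Rnf7 (1456600_a_at) and -0.039 for Ube2f 1436254_at, and the mean of all probe sets gave 0.20 for Uba3, 0.0084 for Dcun1d1 and 0.0054 for Dcun1d5, and with the same sign 0.15 for Rnf7, -0.10 for Cand1 and 0.06 for Ube2f. When 1 array was left out, values at the brightest probe set, alike in both fits, ran from -0.068 to 0.10 for Rnf7, from -0.14 to 0.0030 for Nedd8, from -0.32 to 0.19 for Uba3, from -0.11 to 0.11 for Nae1, from -0.19 to 0.16 for Cand1, and from -0.26 to 0.045 for Dcun1d1, and with no change of sign from 0.11 to 0.26 for Rbx1, from 0.28 to 0.47 for Ube2f and from -0.31 to -0.05 for Dcun1d5. At other probe sets they ran from -0.36 to 0.60 for Dcun1d1 1425986_a_at, from -0.010 to 0.59 for Rnf7 1426414_a_at, from -0.41 to 0.43 for Ube2f 1436254_at, from -0.34 to 0.28 for Dcun1d5 1437256_at, from -0.25 to 0.0087 for Ube2f 1451272_a_at, from -0.15 to 0.029 for Dcun1d1 1452080_a_at, from -0.19 to 0.16 for Dcun1d1 1455053_a_at, and from -0.19 to 0.10 for Cand1 1455751_at. Such fits assume that the lone array varies like the other genotype. The replicate block left 0 of 9 genes (lowest adjusted p = 0.671) and 0 of 25 probe sets called, with 43 of all genes against 31. Nothing in the labels says that equal numbers mark a pair, and deviations of same-numbered arrays correlated at -0.017 over 11255 genes. Counts over all genes, 31 at the stated settings, were 81 with median centring, 0 without the filter (1247 at an unadjusted p below 0.05), 0 without the trend (922), 55 without KO replicate 1, 81 without LM replicate 1 and 97 without LM replicate 2. Over all probe sets, 53 at the stated settings, they were 3 without the filter, 0 without the trend (2051 at an unadjusted p below 0.05), 278 and 150 without KO replicates 1 and 2, and 88 and 112 without LM replicates 1 and 2. The cause of these shifts was not tested.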
